A study of Homo sapiens with 6 samples.

Results

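The 9 genes described here make, hold, sense or remove retinoic acid: RDH10, DHRS9 and DHRS3, which interconvert retinol and retinal, ALDH1A1, ALDH1A2 and ALDH1A3, which oxidise retinal to retinoic acid, CRABP2, which binds it, CYP26B1, which breaks it down, and RARB, one of its receptors. They were taken by symbol, as every probe set whose platform annotation gives 1 gene symbol that is among these 9. This gave 26 probe sets of 49293, and averaging them per gene gave 9 genes of 18132. The cells were U87, an established human glioma line, grown in DMEM with fetal bovine serum. On 3 arrays the RNA came from cells transduced with a lentivirus for a short hairpin against PCGF1 (labelled PCGF1-shRNA, and T0), and on the other 3 from cells with a negative control lentivirus (labelled NC, and T1). The labels call the 3 arrays of each group biological replicates. What T0 and T1 stand for, how many hairpins were used and whether the replicates were separate cultures is not given in the sources used here, so T0 or T1 and the knockdown cannot be told apart, and p-values reflect only how these samples spread, which may be technical. The study compared expression after PCGF1 knockdown with that in the control cells.

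Retinoic acid is made from vitamin A in a pair of oxidation steps. Retinol is first oxidised, reversibly, to retinal by dehydrogenases such as RDH10, and retinal is then oxidised irreversibly by the ALDH1A enzymes. Retinoic acid enters the nucleus with binding proteins such as CRABP2 and activates RAR receptors paired with RXR receptors on DNA, where several genes of the pathway, RARB and the CYP26 enzymes among them, are known targets. ALDH1A3 is also known as a marker of the mesenchymal kind of glioma stem cell. PCGF1 is a subunit of PRC1.1, a variant Polycomb complex whose KDM2B subunit binds CpG-rich DNA.

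Each value is a log2 signal from which the probe set's median over the 6 arrays was subtracted. Differences between arrays can be read from it but absolute expression cannot, so levels cannot be compared between genes, the defining markers of a glioma line cannot be checked for presence, and the sign of a single value has no meaning of its own. PCGF1, measured by 1 probe set, was at 74.3% of control in the knockdown arrays (95% interval 67.8 to 81.5%, limma adjusted p = 0.00410). Over all genes, 11.0% were called at an adjusted p under 0.05, 6.36% higher and 4.63% lower in the knockdown arrays. The 1994 genes called with all arrays became 1070 without the first knockdown replicate, 980 without the third, and 1120, 981 and 1028 when control replicate 1, 2 or 3 was dropped. Markers of other cell types gave 0 of 7 epithelial and 0 of 6 endothelial genes called (by limma; 1 epithelial gene higher and 1 endothelial gene lower at an unadjusted p under 0.05), 2 of 6 leukocyte genes (CD74 at 0.24, LYZ at -0.19) and 2 of 6 fibroblast and mural genes (COL1A1 at 0.61, PDGFRB at 0.28). The mean level of the fibroblast and mural list was 0.07 to 0.09 in the knockdown arrays and -0.11 to -0.04 in the control arrays. This mean leans on the 2 called genes. Of the 6 genes, 3 had a log2 fold change above 0 and 3 below, with a median of 0.03. The mean of the endothelial list was -0.06 to -0.02 in the knockdown arrays and 0.00 to 0.08 in the control arrays. Of 11 glial and glioma line markers 0 were called (limma; 1 higher at an unadjusted p under 0.05). For ACTB, the difference between the 3′ and 5′ array controls exceeded that of control cells by 0.08 in knockdown cells (exact permutation p = 0.2), with overlapping groups. The part of these in the results below was not tested.

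Of the 9 retinoic acid genes, ALDH1A3 and DHRS9 fell in the knockdown arrays, 0 rose, and 7 did not pass the test. In RNA from a whole culture, fewer cells that express a gene and less RNA per cell cannot be told apart. The 2 fallen genes of 9 stand beside 4.63% called lower among all genes. With 9 genes, chosen with earlier results of these data known, no more is read from that share. The count of 0 higher is by limma after adjustment, and 1 gene, RDH10, was higher at an unadjusted p under 0.05. The median log2 fold change of the 9 was -0.01, and the median size regardless of direction was 0.07, against -0.01 and 0.07 over all genes. The groups did not overlap for 4 of the 9, of which 3 were lower (ALDH1A3, DHRS9 and CRABP2) and 1 higher (RDH10), where 32.7% of all genes had groups that did not overlap. Fold changes ran from -0.41 for ALDH1A3 to 0.15 for RDH10.

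**Figure D1:**
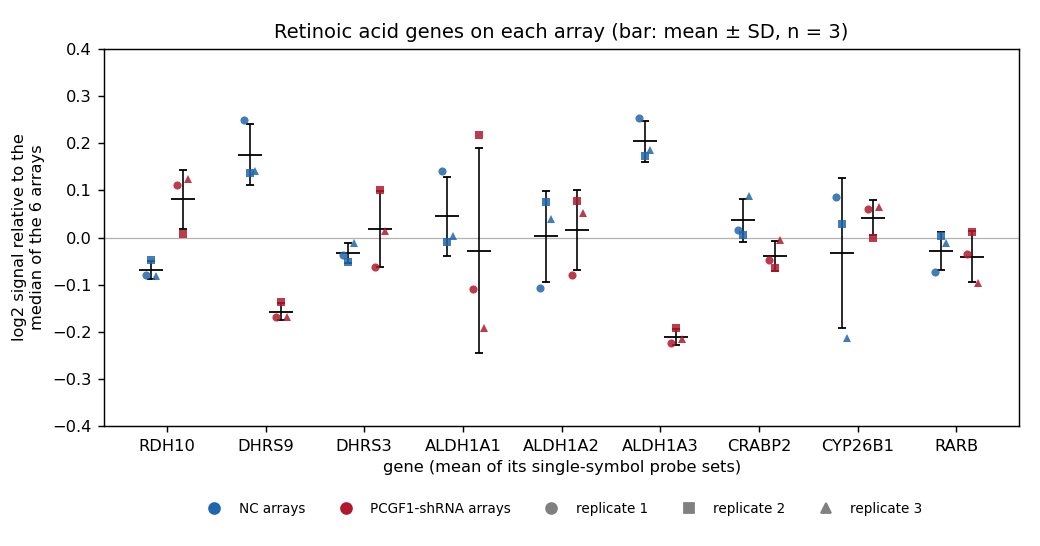
Log2 signal of each of the 9 genes relative to the median of the 6 arrays (y axis), with 1 point per array, control in blue and knockdown in red, and bars for the mean ± SD of 3 arrays. The 3 knockdown points lie below all control points for ALDH1A3 and DHRS9, while those of ALDH1A1 spread from -0.19 to 0.22.

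The first step, between retinol and retinal, held 1 gene that fell and 2 that were not called. DHRS9, a retinol dehydrogenase of the short-chain family that also acts on steroids, was at -0.17, -0.14 and -0.17 in knockdown replicates 1 to 3 and at 0.25, 0.14 and 0.14 in control replicates 1 to 3. All knockdown arrays were lower than all control arrays, and the control array of replicate 1 was the highest. The means were -0.16 ± 0.02 and 0.18 ± 0.06 (SD, n = 3 each), and the gene fell by 0.33 on the log2 scale (SE 0.04, limma adjusted p = 0.00382), to 79.3% of control (95% interval 73.9 to 85.1%). This rests on 1 probe set. An exact permutation test gave 0.1, and 3 against 3 arrays can give no smaller p.

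RDH10, the retinol dehydrogenase that supplies most retinal in embryonic tissues, was at 0.11, 0.01 and 0.12 in the knockdown arrays and at -0.08, -0.05 and -0.08 in the control arrays. The groups did not overlap, although knockdown replicate 2 lay closer to the control arrays than the others. Its log2 fold change of 0.15 ± 0.04 (SE, n = 3 each) did not pass (limma adjusted p = 0.0683, unadjusted p = 0.00933), and without knockdown replicate 2 it was 0.19 and passed (adjusted p = 0.0443). Its 3 probe sets were at 0.11, 0.13 and 0.21, none called alone.

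DHRS3, a reductase that turns retinal back into retinol and so opposes RDH10, was at -0.06, 0.10 and 0.01 in the knockdown arrays and at -0.04, -0.05 and -0.01 in the control arrays. The groups overlapped, with a log2 fold change of 0.05 (95% interval -0.06 to 0.16, limma adjusted p = 0.569). Its 3 probe sets differed in sign, at 0.12, 0.11 and -0.09.

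Among the 3 enzymes that oxidise retinal, ALDH1A3 fell and the other 2 were not called. ALDH1A3 was at -0.22, -0.19 and -0.22 in knockdown replicates 1 to 3 and at 0.25, 0.17 and 0.19 in the controls. The knockdown arrays lay close together and well below every control array. The means were -0.21 ± 0.02 and 0.20 ± 0.04 (SD, n = 3 each), and the gene fell by 0.41 (SE 0.04, limma adjusted p = 0.00103), to 75.0% of control (95% interval 70.4 to 79.9%), which placed it at number 93 among all genes ordered from the largest fall. The exact permutation p was 0.1, again the smallest possible.

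The average of ALDH1A3 joins 4 probe sets that were called and 1 that was not. Probe set 11750186_a_at was at -0.39, -0.32 and -0.26 in the knockdown arrays against 0.26, 0.29 and 0.35 in the controls. Probe set 11750101_a_at was at -0.37, -0.27 and -0.33 against 0.27 in all 3 controls. These and 11750102_x_at and 11754184_a_at were each called lower, with log2 fold changes of -0.62, -0.59, -0.51 and -0.34 and limma adjusted p between 0.00124 and 0.00988 over all 49293 probe sets, of which 2.94% were called lower. The fifth set, 11745318_x_at, was at 0.11, 0.06 and -0.06 in the knockdown arrays and at 0.34, -0.13 and -0.07 in the controls. Its groups overlapped, control replicate 1 stood above the rest, and its log2 fold change was -0.01 ± 0.12 (SE, adjusted p = 0.974).

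A sixth probe set, 11745317_at, lies outside the selection because its annotation names both ALDH1A3 and GCAWKR, the neighbouring gene of a long non-coding RNA. Its values followed those of 11745318_x_at from array to array (Pearson r 0.98 over 6 arrays), and r between 11745318_x_at and each of the other 4 was between -0.07 and 0.06. The annotation gives 1 source transcript for both of these sets and other transcripts for the 4 that fell. With 11745318_x_at left out, an alternative chosen after its values were seen, ALDH1A3 fell by 0.52 (SE 0.04, limma adjusted p = 0.000336), to 69.9% of control.

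**Figure D2:**
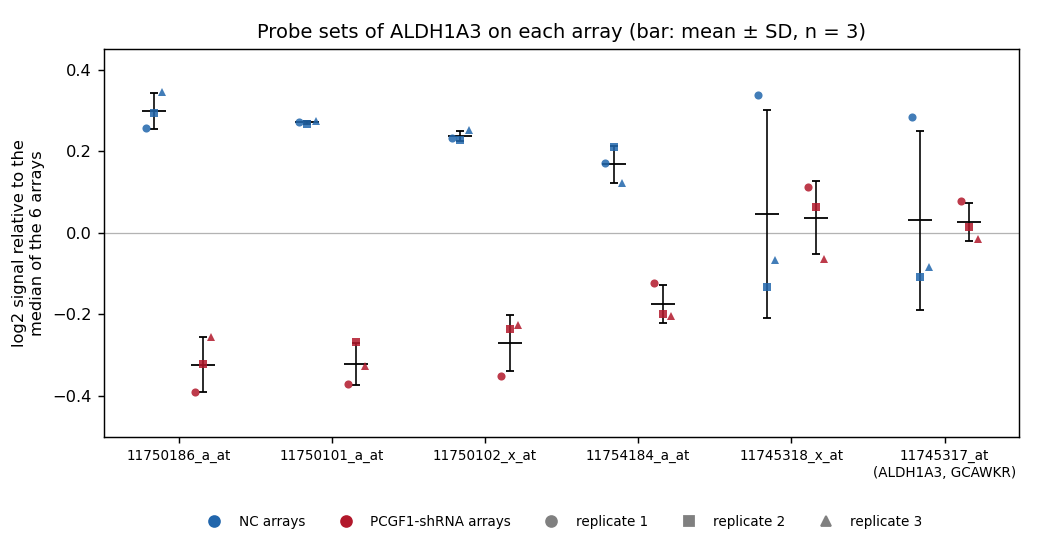
Log2 signal of each ALDH1A3 probe set relative to its median over the 6 arrays (y axis), 1 point per array, control in blue and knockdown in red, with mean ± SD of 3 arrays. In the 4 sets on the left the knockdown points lie below all control points, and in the pair on the right control replicate 1 stands at 0.34 and 0.28 while the groups overlap.

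ALDH1A1, the form common in adult tissues and in many stem cells, was at -0.11, 0.22 and -0.19 in the knockdown arrays and at 0.14, -0.01 and 0.00 in the control arrays. Its knockdown arrays spread most of all 9 genes (SD 0.22), with replicate 2 the highest of all 6 arrays in each of the 3 probe sets. The log2 fold change was -0.07 with a wide interval (95% interval -0.31 to 0.16, limma adjusted p = 0.708), and without knockdown replicate 2 it was -0.20 (adjusted p = 0.106). ALDH1A2, the main source of retinoic acid in the early embryo, was at -0.08, 0.08 and 0.05 against -0.11, 0.08 and 0.04. The groups overlapped fully and the log2 fold change was 0.01 (95% interval -0.13 to 0.16, adjusted p = 0.915).

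Whether the fall of ALDH1A3 differed from its 2 relatives was asked by the difference between genes within each array. The knockdown changed ALDH1A3 minus ALDH1A2 by -0.43 ± 0.09 (SE) and ALDH1A3 minus ALDH1A1 by -0.34 ± 0.12, with no overlap between the groups in either. ALDH1A1 minus ALDH1A2 gave -0.09 ± 0.15, with overlap. Among the retinol and retinal enzymes, DHRS9 minus RDH10 changed by -0.48 ± 0.06 and DHRS9 minus DHRS3 by -0.38 ± 0.06, both with no overlap, and RDH10 minus DHRS3 by 0.10 ± 0.08, with overlap. The 4 differences with no overlap had an exact permutation p of 0.1, the smallest possible, and 0.15 after adjustment over the 6 pairs, so this permutation test cannot reach an adjusted p under 0.05 for them. The pairs were formed after the values were known. Each of the 4 contains ALDH1A3 or DHRS9, already called lower, so these differences partly repeat those calls and are no separate support for them.

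Promoter sequences were set beside the 2 genes that fell because PRC1.1 is known for CpG-rich DNA. The RefSeq promoter table (GRCh38.p14) held 8 of the 9 genes, all but RDH10, in 17 windows. The 250 bases before each annotated start are described. The ALDH1A3 window lies at chr15:100879581-100879830 on the plus strand, and the first of the 4 DHRS9 windows at chr2:169066827-169067076, also on the plus strand. Capitals mark every CG dinucleotide, 5′ to 3′.
ALDH1A3: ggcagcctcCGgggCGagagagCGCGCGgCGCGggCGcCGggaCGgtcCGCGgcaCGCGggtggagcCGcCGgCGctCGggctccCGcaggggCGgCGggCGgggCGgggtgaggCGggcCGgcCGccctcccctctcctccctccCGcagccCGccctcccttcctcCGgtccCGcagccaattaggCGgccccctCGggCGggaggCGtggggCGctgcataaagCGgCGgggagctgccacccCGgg
DHRS9: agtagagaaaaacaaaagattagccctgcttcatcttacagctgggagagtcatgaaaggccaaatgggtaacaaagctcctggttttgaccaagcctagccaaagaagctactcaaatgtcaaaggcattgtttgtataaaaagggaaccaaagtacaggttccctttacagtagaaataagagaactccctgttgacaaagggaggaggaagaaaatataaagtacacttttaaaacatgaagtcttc
The ALDH1A3 window held 38 CG dinucleotides and was 82.4% G or C, while this DHRS9 window held 0 and was 39.2% G or C, and the other 3 DHRS9 windows held 2, 1 and 0. The median over 35116 RefSeq windows of the same length was 11. The windows of the 2 fallen genes thus lie near opposite ends of CpG content. High CpG content was not particular to ALDH1A3. Among genes that were not called, the richest windows of ALDH1A2, RARB and DHRS3 held 33, 28 and 26, and their other windows between 1 and 10. The windows of CRABP2, CYP26B1 and ALDH1A1 held 18, 16 and 6. Binding of PRC1.1 was not measured here, and whether CpG content had a part in any of these changes was not tested. The first DHRS9 window has the letters TATAAA at 32 to 27 and at 114 to 109 bases before the annotated start. These letters, whose search was not planned, were found on either strand in 10.7% of all windows. They were also in other DHRS9 windows and in that of CYP26B1, which was not called, and ALDH1A3 has no match to them in its window.

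CRABP2, which carries retinoic acid to its nuclear receptors, was at -0.05, -0.07 and 0.00 in the knockdown arrays and at 0.02, 0.00 and 0.09 in the controls. The groups did not overlap, by a narrow margin between knockdown replicate 3 and control replicate 2. The log2 fold change of -0.08 ± 0.04 (SE) did not pass (95% interval -0.17 to 0.02, limma adjusted p = 0.296), and its 3 probe sets were all negative, from -0.14 to -0.04. CYP26B1, a cytochrome P450 that inactivates retinoic acid, was at 0.06, 0.00 and 0.07 in the knockdown arrays and at 0.09, 0.03 and -0.21 in the controls. Control replicate 3 was the lowest array in both of its probe sets. Its log2 fold change was 0.07 (95% interval -0.10 to 0.25, adjusted p = 0.586), and without control replicate 3 it was -0.02.

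RARB, the retinoic acid receptor whose own transcription is raised by retinoic acid, was at -0.04, 0.01 and -0.10 in the knockdown arrays and at -0.07, 0.00 and -0.01 in the controls. The groups overlapped, and the log2 fold change was -0.01 (95% interval -0.12 to 0.09, limma adjusted p = 0.894). Its 3 probe sets were at 0.14, -0.09 and -0.09, none called. Of the 7 genes that did not pass, ALDH1A1 had the interval that reached lowest, to -0.31, and RDH10 and CYP26B1 those that reached highest, both to 0.25.

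RARB is known to answer to retinoic acid through a response element in its promoter, and the sequence is shown because RARB is here the best-known readout of the pathway. Response elements are direct repeats of a hexamer. The consensus hexamer AGGTCA was searched on both strands together with 2 variants, GGTTCA being the first and the second being AGTTCA, in any pairing and with spacers of 1, 2 or 5 bases. Of the 17 windows of these 8 genes, 1 held such a repeat, as did 0.108% of all 35116 windows. It was the RARB window at chr3:25428013-25428262 on the plus strand, where capitals mark the repeat with a spacer of 5.
RARB: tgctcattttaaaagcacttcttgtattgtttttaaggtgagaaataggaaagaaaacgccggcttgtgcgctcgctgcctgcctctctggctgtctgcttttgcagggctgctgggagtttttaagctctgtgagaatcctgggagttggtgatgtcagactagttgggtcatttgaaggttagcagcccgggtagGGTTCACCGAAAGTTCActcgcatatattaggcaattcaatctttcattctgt
The repeat lies 53 to 37 bases before this start, and a repeat with a spacer of 5 was found in 0.0513% of all windows. The 2 variants searched, GGTTCA and AGTTCA, are the hexamers of this RARB repeat itself. The search was thus suited to finding it, and its rarity among all windows is no independent support. A match of letters says nothing about binding in these cells. Single hexamers, which overlap with the repeat, were in 8 of the 17 windows and in 25.1% of all windows.

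The wider retinoid pathway was described with 75 other measured genes in lists of uptake, enzymes, binding, receptors, coregulators and induced genes. Of these 5 rose and 3 fell, 10.7% against the 11.0% called among all genes. The lists were chosen with earlier results of these data known, so no conclusion about the pathway is drawn from this share. Their median log2 fold change was -0.01. Without knockdown replicate 1 or control replicate 1, 5 of the 75 were called.

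Among uptake and storage genes 1 of 13 rose and 0 fell (0 lower also at an unadjusted p under 0.05, limma). This was DGAT1, which can esterify retinol, at 0.16 ± 0.04 (SE, limma adjusted p = 0.0387). The call was lost when any 1 array was left out (adjusted p 0.0727 to 0.120). The DGAT1 probe sets were at 0.21, called alone, and at 0.12, not called and with overlapping groups. STRA6, the cell-surface receptor for retinol bound to its carrier, was at -0.06 (95% interval -0.16 to 0.03), and LRAT, the main retinol-esterifying enzyme, at -0.04 (-0.19 to 0.10), neither called.

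Of 17 other retinol and retinal oxidoreductases 1 rose and 0 fell (3 lower at an unadjusted p under 0.05, limma). AKR1B10, an aldo-keto reductase that reduces retinal to retinol, was at 0.13, 0.20 and 0.18 in the knockdown arrays and at -0.29, -0.15 and -0.16 in the control arrays. All knockdown arrays were above all control arrays, and it rose by 0.37 (SE 0.05, limma adjusted p = 0.00357). The 2 probe sets annotated to AKR1B10 alone, which make up this value, were at 0.36 and 0.38, both called. Sets annotated to both AKR1B10 and its near copy AKR1B15 were at 0.36, called, and at 0.11, not called, so the share of each gene is uncertain. DHRS2, another member of the broad short-chain family, was at -0.40 ± 0.11 (SE) and did not pass (limma adjusted p = 0.0600), with control arrays from 0.01 to 0.44. Of 3 other genes that can oxidise retinal, CYP1B1 rose by 0.19 (SE 0.05, limma adjusted p = 0.0360). It did not pass when knockdown replicate 1 or 3 or any 1 control array was dropped (adjusted p 0.0634 to 0.108). Its probe sets were at 0.28, 0.25 and 0.24, each called alone, and at 0.17 and 0.00, neither called.

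The largest change in the pathway outside the 9 genes was in FABP5, a fatty acid binding protein that also carries retinoic acid, to the receptor PPARD. It was at -0.24, -0.20 and -0.31 in the knockdown arrays and at 0.20, 0.26 and 0.27 in the controls. The groups stood clearly apart, and it fell by 0.49 (SE 0.04, limma adjusted p = 0.000832), to 71.1% of control. It rests on 1 probe set of the _x_at kind, which may detect related sequences, and a second set shared with the pseudogene FABP5P2 was at -0.53. CRABP2, the other carrier measured, was not called, as given above. Of the 4 other binding and clearance genes FABP5 was the 1 called, and CYP26A1, the best-known retinoic acid target among the clearance enzymes, was at 0.06 (95% interval -0.05 to 0.17).

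Of 9 other receptors 1 rose and 1 fell. NR2F1, an orphan nuclear receptor that can occupy retinoic acid response elements and is itself induced by retinoic acid in embryonal cells, was at 0.13, 0.17 and 0.26 in the knockdown arrays and at -0.13, -0.19 and -0.15 in the controls. The groups did not overlap, and it rose by 0.34 (SE 0.05, limma adjusted p = 0.00423) on 1 probe set. RXRA, a common partner of the RAR receptors, was at -0.10, -0.06 and -0.13 against 0.11, 0.08 and 0.13. It fell by 0.21 (SE 0.04, adjusted p = 0.0156), which did not pass when replicate 1 or 3 of either group was dropped (adjusted p 0.0504 to 0.0618) or with its most variable probe set (adjusted p = 0.0552). Of its 2 probe sets, 1 was called alone and the other was not (adjusted p = 0.0814). RARA was at 0.03 (95% interval -0.10 to 0.17), RARG at -0.04 (-0.14 to 0.07), RXRB at 0.09 (-0.02 to 0.21) and RXRG at -0.08 (-0.27 to 0.10), none called. Among 9 coregulators 0 were called by limma, with 1 lower at an unadjusted p under 0.05.

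**Figure D3:**
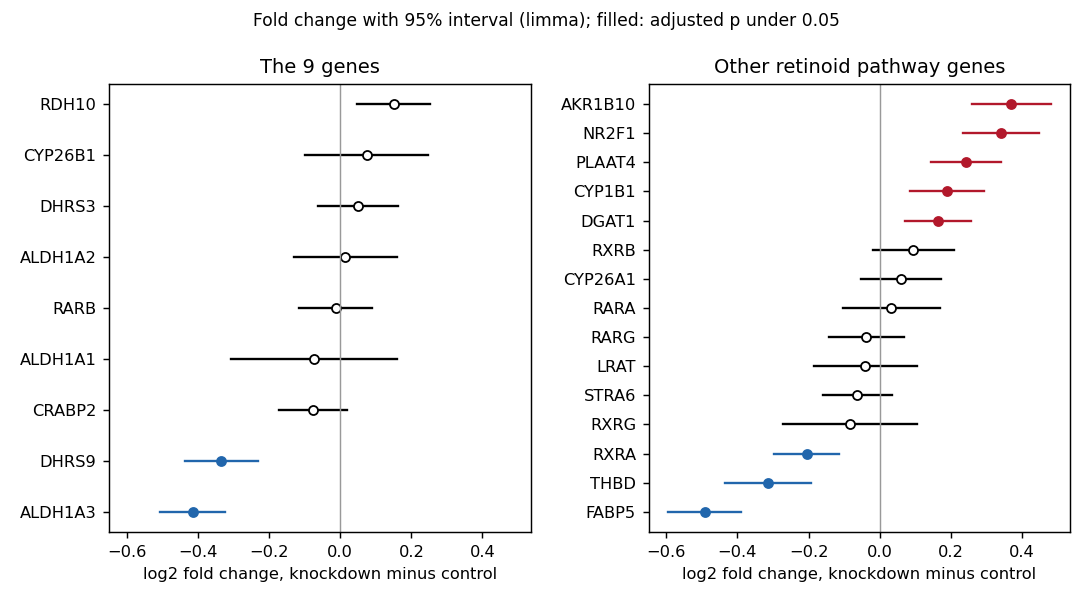
Log2 fold change, knockdown minus control, with 95% limma intervals for the 9 genes (left) and for other retinoid pathway genes that were called or set down by name (right). Filled points passed an adjusted p of 0.05, red for higher and blue for lower. ALDH1A3, DHRS9, FABP5, THBD and RXRA lie to the left of 0 with intervals that exclude it.

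Of 24 measured genes known to be induced by retinoic acid, 1 rose and 1 fell, 8.33% against the 11.0% called among all genes, and 2 were higher and 4 lower at an unadjusted p under 0.05 (limma). Their median log2 fold change was 0.00. PLAAT4, a phospholipase first named as a gene responsive to retinoids, was at 0.08, 0.14 and 0.17 against -0.15, -0.08 and -0.11. It rose by 0.24 (SE 0.04, limma adjusted p = 0.0116), as the average of 3 probe sets that disagreed, at 0.40, 0.50 and -0.16. THBD, the endothelial anticoagulant receptor thrombomodulin, was at -0.16, -0.14 and -0.13 against 0.28, 0.11 and 0.13. It fell by 0.31 (SE 0.05, adjusted p = 0.00953), with its 2 probe sets at -0.51 and -0.12, the latter not called alone. DHRS3, CYP26B1 and RARB, which retinoic acid is also known to induce, were not called, as given above.

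The other aldehyde dehydrogenases, a list added after the data were seen, gave 1 of 16 called, against 11.0% of all genes. ALDH9A1, which acts on amino aldehydes, rose by 0.27 (SE 0.04, limma adjusted p = 0.00849), and 0 of the 16 fell (0 lower also at an unadjusted p under 0.05). With 4.63% of all genes called lower, a count of 0 in so short a list is near the background.

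Across the 6 arrays the profile of ALDH1A3 was most like those of SHMT2, MITD1 and NOP58 (Pearson r 0.9997, 0.9974 and 0.9971), and that of DHRS9 most like those of HSPA5, ALDH1A3 and SHMT2 (0.9959, 0.9949 and 0.9947). With 3 arrays in each group r mostly reflects the difference between groups, and 1059 genes had an r above 0.9 with ALDH1A3 and 923 with DHRS9. ALDH1A3 and DHRS9 thus had closely similar profiles, as did many other genes lower in the knockdown arrays.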

How the data were processed

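RNA from 6 samples, 3 PCGF1-shRNA and 3 NC, was hybridised to Affymetrix arrays. The authors applied RMA (version not stated), per the submitters' processing notes, and the deposited values are taken as log2 from the naming of RMA. The values themselves show that each probe set was centred on the median of its 6 arrays (largest departure 4.85e-07), a step the sources used here do not describe. Absolute signal is therefore unknown, and no filter on dim probe sets was possible. Precision is limited by the number of arrays.

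Of 49395 probe sets, 102 controls were left out. The platform annotation may be outdated, and in it 44988 had 1 gene symbol, 1832 several and 2473 none, and single-symbol sets were averaged per gene. The groups were compared with limma 3.58.1 under R 4.3.3 (two-sided moderated test from lmFit and eBayes, Benjamini-Hochberg over all 18132 genes, or over all 49293 probe sets where single sets are given). SEs and 95% intervals are limma's, except for within-array differences, whose SE comes from the spread of the arrays. The fit was tested on simulated data. Of 88 other pathway genes listed, 75 were measured and 13 are not analysed here. Alternatives were other normalizations, weights, probe set choices, a replicate block and leaving out each array. The genes named are the 9, PCGF1, every called pathway gene, a fixed set of receptors and carriers, and the 3 genes most like each called gene. DHRS2, the markers and ALDH9A1 were named after their values were seen. The members and lists were chosen with earlier results of these data known.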

Additional observations from a re-analysis of the deposited data

How the results depend on the processing

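The 2 lower calls among the 9 genes, ALDH1A3 and DHRS9, were kept in each of the 14 other settings tried (ALDH1A3 from -0.62 to -0.39, adjusted p 0.000451 to 0.0103; DHRS9 from -0.35 to -0.30, adjusted p 0.00290 to 0.0211). The count was also 2 with single probe sets at an adjusted p under 0.05, and, separately, with gene averages at an adjusted p under 0.01. DHRS9 has 1 probe set, so the settings that choose among probe sets left its values as they were. Leaving out 1 array gave 0 to 1 of the 9 higher, the 1 being RDH10, 980 to 1402 of all genes called (553 to 812 higher and 395 to 590 lower), and 5 to 7 of the 75 other pathway genes. At an adjusted p under 0.01, 623 genes were called, 366 higher and 257 lower. Without _s_at and _x_at probe sets 5 pathway genes were called, and FABP5, CYP1B1 and DGAT1 had no probe set left to test. Without the 25% of probe sets that varied least, DGAT1 and CYP1B1 did not pass (adjusted p 0.0766 and 0.0594), nor did DGAT1 with its most variable probe set (adjusted p 0.0729). The sign of the small, uncalled fold changes moved in 3 alternatives for ALDH1A2 and RARB, 2 for CYP26B1 and 1 for ALDH1A1.

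Deviations of same-numbered knockdown and control arrays from their group means correlated at -0.04, -0.05 and 0.01. No shared deviation was thus seen, but this cannot decide whether same-numbered samples were grown or processed together. The labels give only a shared number, so the replicate block is not taken as a pairing. Under that block 1036 genes passed, 596 higher and 440 lower, and 5 of the 75 pathway genes, with CYP1B1, DGAT1 and RXRA no longer called (adjusted p 0.0624, 0.0846 and 0.0598).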
